A study of Homo sapiens with 9 samples.

Results

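DNA replication and S-phase genes were examined in A549 cells after siRNA against Cyclin K. The group held 57 genes named by symbol, and 55 of them had a row among the 31080 genes with a reference annotation in the deposited tables. FEN1 and DNA2 were not analysed here. All 55 were among the 21048 genes tested. A549 is an established human lung adenocarcinoma cell line that grows as an epithelial sheet. The cells were transfected for 48 h with 50 nM of a scrambled siRNA, of siCyclin K#1 or of siCyclin K#2, 2 siRNAs of different sequence against the same gene, CCNK. Each of the 3 groups had 3 libraries of total RNA, every library came from this 1 cell line, and the scrambled siRNA libraries served as the control of both siRNAs. The cells were described as grown in RPMI-1640 in the sample labels (spelled PRMI-1640 there) and in DMEM in the study's methods.

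Replication of DNA starts at origins that the origin recognition complex marks in G1. CDC6 and CDT1 load rings of MCM2 to MCM7 onto the marked DNA, geminin blocks that loading after S phase has begun, and CDC45 with the GINS complex turns a loaded ring into a moving helicase. Primase and the polymerases then copy both strands behind the helicase, PCNA holds the polymerases on DNA, and enzymes such as ribonucleotide reductase supply the deoxynucleotides. Many of these genes are known targets of the E2F transcription factors, which are released from RB proteins late in G1 in proliferating cells, and A549 cells carry an intact RB1 gene but lack the CDKN2A locus. Cyclin K is the partner of CDK12 and CDK13, kinases of RNA polymerase II.

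Depth recovered from the steps of the values was 31333749 to 33767961 reads per library, and no library stood apart in depth. CCNK itself was at 6.896, 7.06 and 7.099 FPKM (fragments per kilobase of exon, scaled to sequencing depth) with scrambled siRNA, 0.891, 0.816 and 0.7204 after siCyclin K#1 and 0.809, 0.9201 and 0.802 after siCyclin K#2. The target was therefore low in all 6 siCyclin K libraries, and its level did not differ detectably between both siRNAs (log2 difference -0.06 ± 0.10 SE, adjusted p = 0.726). Of 9 markers of A549 cells, KRT8, KRT18, ALDH1A1, AKR1B10, AKR1C1 and AKR1C2 were at 19.6 FPKM or above in every library, CDH1 was at 1.19 to 4.60 FPKM, and KRT19 and EPCAM stayed at or under 0.279 FPKM. Of 7 markers of blood, endothelial and connective tissue cells with a row, 6 stayed at or under 0.0712 FPKM. The 7 markers summed to between 1.81 and 2.31 FPKM in controls, between 13.7 and 14.7 after siCyclin K#1 and between 3.10 and 3.32 after siCyclin K#2. COL1A1 made up nearly all of this sum, and COL3A1, another collagen gene among the markers, was at or near 0. What part this had in the results below was not tested.

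Fold changes are log2 differences on the log2(FPKM + 0.1) scale with their standard errors, and adjusted p-values are those of limma with Benjamini-Hochberg adjustment over all 21048 genes. A gene is said to have risen or fallen where this adjusted p was under 0.05. The labels and the series description call the libraries of a group independent samples without saying what was separate, so p-values measure the spread between these libraries. Levels of different genes can be set side by side, since FPKM is per length. In RNA of whole cultures, fewer cells in S phase and less of an RNA per cell cannot be told apart. The study reported that, without irradiation, the distribution over the cell cycle did not change significantly on Cyclin K depletion. Whether this holds for the cultures of these libraries was not tested.

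With siCyclin K#1, 27 of the 55 replication genes fell, 9 rose and 19 passed in neither direction. Over all genes tested, 18.1% fell and 26.8% rose, and among the 11243 of these with a mean of at least 1 FPKM, the range where all 55 lay, 27.8% fell and 36.5% rose. With siCyclin K#2, 14 of the 55 fell, 23 rose and 18 passed in neither direction, against 15.2% lower and 19.8% higher among all genes and 22.4% and 31.1% among those of at least 1 FPKM. The median difference of the 55 genes from scrambled siRNA was -0.21 with siCyclin K#1 and 0.07 with siCyclin K#2, beside 0.10 and 0.01 over all genes tested. Scaling moved these counts. After median-ratio rescaling 30 fell and 6 rose with siCyclin K#1, and 15 fell and 17 rose with siCyclin K#2. Of the called replication genes, 16.7% and 53.1% were then higher, against 53.7% and 50% of all called genes. After quantile normalization 29 fell and 6 rose with siCyclin K#1, and 15 fell and 18 rose with siCyclin K#2. Of the called replication genes, 17.1% and 54.5% were then higher, against 50.3% and 50.2% of all called genes. With siCyclin K#2 the split thus lay near that of all genes under both scalings. Both comparisons share the 3 scrambled siRNA libraries. Quantile normalization moved the median over all genes to -0.019 with siCyclin K#1, and relative to that median the 55 genes lay at -0.311 as deposited and -0.167 after it. The siCyclin K#2 median of the 55 was 0.021 after median-ratio rescaling and 0.002 after quantile normalization.

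The libraries of each siRNA lay close to each other in this respect. The median over the 55 genes of the log2 difference from the scrambled siRNA mean was -0.178, -0.234 and -0.192 in the 3 siCyclin K#1 libraries and 0.078, 0.042 and 0.045 in the 3 siCyclin K#2 libraries. It was 0.037, -0.013 and -0.022 in the scrambled siRNA libraries themselves. By this median all siCyclin K#1 libraries lay below the 3 control libraries. The siCyclin K#2 libraries lay above them, but 0.042 and 0.045 were barely above the 0.037 of scrambled replicate 1. Genes above their scrambled siRNA mean numbered 41 in scrambled replicate 1 and 31, 31 and 29 in the siCyclin K#2 libraries. In 42 of the 55 genes, the 3 siCyclin K#1 values did not overlap the 3 scrambled siRNA values (30 lower, 12 higher). The same was true of 41 genes with siCyclin K#2 (17 lower, 24 higher). How many of all genes tested did not overlap was not counted, so these counts do not set the 55 apart.

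The log2 differences reached from -1.05 to 0.47 with siCyclin K#1 and from -0.75 to 1.00 with siCyclin K#2. Of the 27 genes that fell with siCyclin K#1, 11 did so by more than 1.5-fold. These were 20% of the 55, against 9.8% of all genes tested and 12.6% of those of at least 1 FPKM. Of the 9 that rose, 0 passed this limit, against 17.8% of all genes and 20.4% of those of at least 1 FPKM. By limma-voom on recovered reads, which could be run on 49 of the genes, 11 fell and 0 rose past 1.5-fold, and 11 genes were higher at an unadjusted p under 0.05 by limma. With siCyclin K#2, 3 genes rose by more than 1.5-fold (E2F1, CDC45 and GINS3) and 1 fell (ORC3), against 10.6% and 7% of all genes. Among those of at least 1 FPKM the shares were 14.4% and 7.59%. None of the 55 reached a change of more than 3-fold at an unadjusted p under 0.01 by limma or by limma-voom with either siRNA, against 4.67% of all genes with siCyclin K#1 and 1.94% with siCyclin K#2. At an unadjusted p under 0.05 alone, limma passed 41 and 37 of the 55. The share of all genes at this unadjusted cut was not counted, so these counts do not set the 55 apart.

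**Figure D1:**
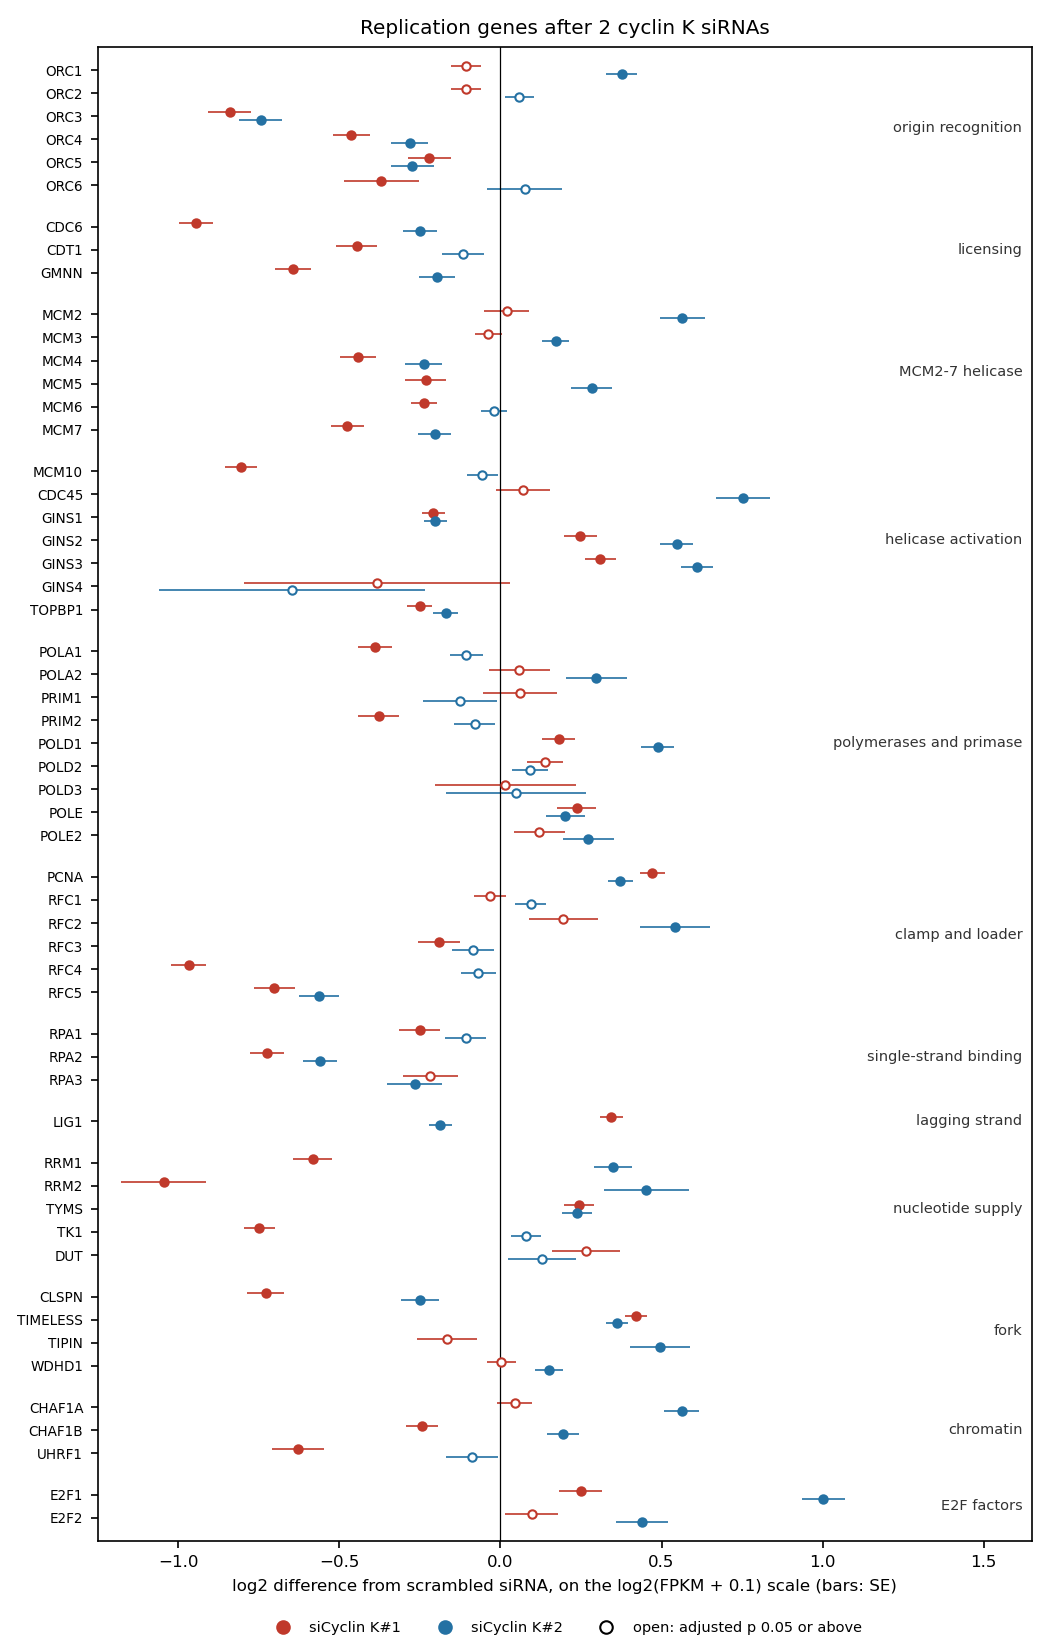
Log2 difference from scrambled siRNA of each of the 55 replication genes with siCyclin K#1 (red) and siCyclin K#2 (blue), on the log2(FPKM + 0.1) scale, grouped by role. Bars are standard errors and open points did not pass the adjusted p of 0.05. Red points reach from -1.05 (RRM2) to 0.47 (PCNA) and blue points from -0.75 (ORC3) to 1.00 (E2F1).

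Tested directly, siCyclin K#1 libraries were lower than siCyclin K#2 libraries for 33 of the 55 genes and higher for 1 (LIG1), while 21 passed in neither direction. Among all genes tested 12.3% were lower and 17.1% higher, and among those of at least 1 FPKM 20.8% and 23.7%. The median direct difference was -0.24 for the 55 genes and 0.08 over all genes. The libraries of both siRNAs did not overlap for 43 genes, 39 of them lower with siCyclin K#1. This too was not counted over all genes tested. The difference was more than 1.5-fold for 9 genes, all lower with siCyclin K#1 (RRM2, RRM1, RFC4, TK1, E2F1, MCM10, CDC6, CDC45 and TIPIN), against 4.8% of all genes in that direction. In the other direction 0 genes passed 1.5-fold, against 8.35% of all genes. By limma-voom 0 passed as well, and 2 genes were higher at an unadjusted p under 0.05 by limma. None of the 55 passed 3-fold at an unadjusted p under 0.01 by limma or limma-voom (1.53% of all genes), and 38 had an unadjusted p under 0.05. Here too the share of all genes at an unadjusted p under 0.05 was not counted.

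**Figure D2:**
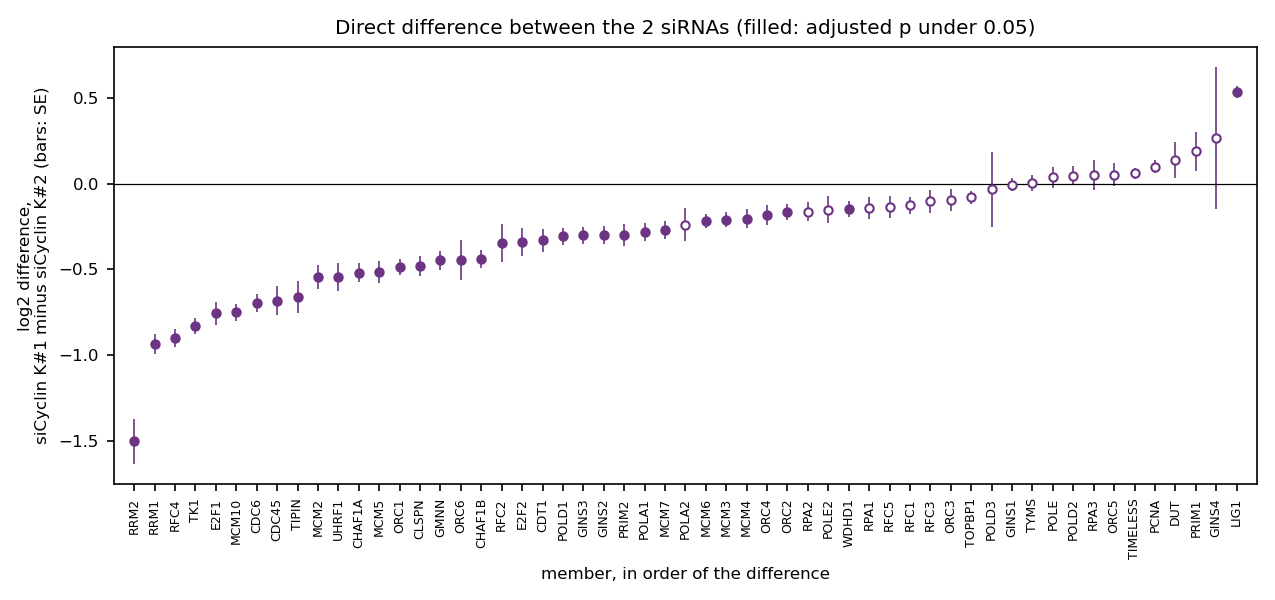
Direct log2 difference between siCyclin K#1 and siCyclin K#2 for the 55 genes, in order, with standard errors. Filled points passed an adjusted p of 0.05. RRM2 lies lowest at -1.50 and LIG1 highest at 0.53, and LIG1 is the one filled point above 0.

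Set side by side, the calls against scrambled siRNA fell into 8 patterns. With both siRNAs, 12 genes fell (ORC3, ORC4, ORC5, CDC6, GMNN, MCM4, MCM7, GINS1, TOPBP1, RFC5, RPA2 and CLSPN) and 8 rose (GINS2, GINS3, POLD1, POLE, PCNA, TYMS, TIMELESS and E2F1). Another 11 fell with siCyclin K#1 and passed in neither direction with siCyclin K#2 (ORC6, CDT1, MCM6, MCM10, POLA1, PRIM2, RFC3, RFC4, RPA1, TK1 and UHRF1). A further 11 rose with siCyclin K#2 and passed in neither direction with siCyclin K#1 (ORC1, MCM2, MCM3, CDC45, POLA2, POLE2, RFC2, TIPIN, WDHD1, CHAF1A and E2F2). RPA3 fell with siCyclin K#2 alone, and 7 genes passed with neither siRNA (ORC2, GINS4, PRIM1, POLD2, POLD3, RFC1 and DUT). In 5 genes the siRNAs went opposite ways: MCM5, RRM1, RRM2 and CHAF1B fell with siCyclin K#1 and rose with siCyclin K#2, and LIG1 did the reverse.

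**Figure D3:**
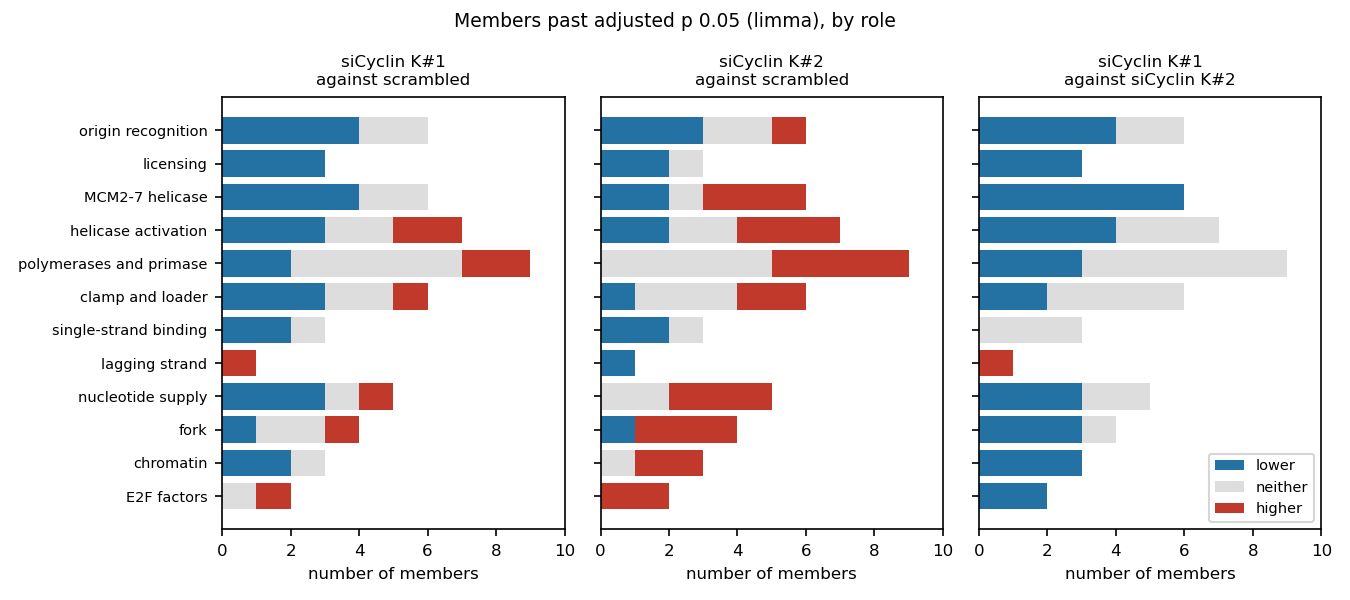
Number of replication genes of each role that were lower (blue), higher (red) or in neither direction (grey) at an adjusted p under 0.05 by limma, in the 3 comparisons. The origin, licensing, single-strand binding, chromatin and MCM2 to MCM7 groups hold no red bar with siCyclin K#1, and the right panel holds 1 red bar, for LIG1.

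Of the 6 subunits of the origin recognition complex, 4 fell with siCyclin K#1 and none rose. After siCyclin K#2, 3 fell and ORC1 rose. ORC3, a core subunit (ENSG00000135336, chr6:87590067-87667453, plus strand), was at 14.4, 13.8 and 13.8 FPKM with scrambled siRNA, 7.65, 7.61 and 8.06 after siCyclin K#1 and 7.62, 8.25 and 9.14 after siCyclin K#2. The 6 depleted libraries lay far below the 3 controls and overlapped each other. ORC3 fell, at a log2 difference of -0.84 ± 0.07 (adjusted p = 1.11e-05) and -0.75 ± 0.07 (adjusted p = 3.98e-05), and the siRNAs did not differ detectably (log2 difference -0.10 ± 0.07, adjusted p = 0.333). ORC4, another core subunit, was at 9.41, 9.72 and 9.26 FPKM in controls, 6.86, 6.74 and 6.91 after siCyclin K#1 and 8.43, 7.55 and 7.35 after siCyclin K#2. It fell, at a log2 difference of -0.46 and -0.28 (adjusted p = 0.000183 and 0.00472). The direct difference of ORC4 (log2 difference -0.18, adjusted p = 0.0438) was lost on leaving out any of 8 of the 9 libraries (log2 difference -0.20 to -0.12). ORC1, the ATP-binding subunit that varies with the cell cycle, was at 12.3, 11.6 and 11.4 FPKM in controls, 10.6, 10.8 and 11.3 after siCyclin K#1 and 15.3, 14.8 and 15.8 after siCyclin K#2. It rose with siCyclin K#2 by 0.38 ± 0.05 (adjusted p = 0.000302), and siCyclin K#1 gave -0.11 ± 0.05 (adjusted p = 0.0978).

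All 3 licensing genes fell with siCyclin K#1, and all 3 were lower with it than with siCyclin K#2. CDC6, the ATPase that brings MCM rings to the origin (ENSG00000094804, chr17:40287633-40304657, plus strand), was at 32.1, 28.95 and 30.5 FPKM with scrambled siRNA, 16.6, 14.8 and 16.1 after siCyclin K#1 and 25.9, 25.8 and 25.3 after siCyclin K#2. The 3 groups did not overlap, with siCyclin K#2 in between. CDC6 fell, at a log2 difference of -0.95 ± 0.05 (adjusted p = 1.36e-06) with siCyclin K#1 and -0.25 ± 0.05 (adjusted p = 0.00565) with siCyclin K#2. GMNN, which encodes geminin, the inhibitor of CDT1, was at 23.2, 21.04 and 21.3 FPKM in controls, 13.1, 14.8 and 13.98 after siCyclin K#1 and 19.3, 19.1 and 18.7 after siCyclin K#2. The inhibitor fell together with the loaders, at a log2 difference of -0.64 ± 0.06 (adjusted p = 2.1e-05) with siCyclin K#1. Its smaller fall with siCyclin K#2 (log2 difference -0.20, adjusted p = 0.0248) was lost without scrambled replicate 1 (log2 difference -0.15) and without each siCyclin K#2 library in turn (log2 difference -0.21 to -0.18). CDT1 itself was at 15.3, 15.6 and 15.1 FPKM in controls, 11.96, 10.7 and 10.95 after siCyclin K#1 and 15.1, 14.4 and 12.9 after siCyclin K#2, a log2 difference of -0.45 ± 0.06 (adjusted p = 0.000483) with siCyclin K#1 and a value of -0.12 (adjusted p = 0.211) with siCyclin K#2.

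The 6 subunits of the MCM2 to MCM7 ring, which act as 1 complex, did not move alike. MCM4, MCM5, MCM6 and MCM7 fell with siCyclin K#1, whereas MCM2 and MCM3 passed in neither direction. After siCyclin K#2, MCM2, MCM3 and MCM5 rose and MCM4 and MCM7 fell, and the small rise of MCM3 (log2 difference 0.17, adjusted p = 0.0114) was lost after median-ratio rescaling (log2 difference 0.12) and with eBayes run without trend. MCM7 (ENSG00000166508, chr7:100092728-100101940, minus strand) was at 57.8, 56.5 and 53.9 FPKM with scrambled siRNA, 40.9, 40.3 and 39.7 after siCyclin K#1 and 47.5, 52.6 and 46.1 after siCyclin K#2. It fell, at a log2 difference of -0.48 ± 0.05 (adjusted p = 7.63e-05) with siCyclin K#1, and with siCyclin K#2 at -0.20 (adjusted p = 0.0136), a call lost without scrambled replicate 1 (log2 difference -0.18). MCM2 was at 23.3, 24.5 and 28.1 FPKM in controls, 24.5, 25.1 and 27.02 after siCyclin K#1 and 36.4, 38.7 and 36.9 after siCyclin K#2. Its siCyclin K#1 values lay among the controls (log2 difference 0.02 ± 0.07, adjusted p = 0.858), while its siCyclin K#2 values all lay above them (log2 difference 0.56 ± 0.07, adjusted p = 0.000286). MCM5 was at 21.5, 20.98 and 22.8 FPKM in controls, 19.5, 17.7 and 18.3 after siCyclin K#1 and 28.2, 27.1 and 24.2 after siCyclin K#2, so that the controls lay between the siRNAs (log2 difference -0.23 and 0.28, adjusted p = 0.0161 and 0.00796). Its siCyclin K#1 call was lost without scrambled replicate 3 or siCyclin K#1 replicate 2 (log2 difference -0.20 each). All 6 subunits were lower in siCyclin K#1 than in siCyclin K#2 libraries, at log2 differences of -0.55 (MCM2) to -0.20 (MCM4), and the call for MCM4 was lost on leaving out siCyclin K#1 replicate 1 or 2 or any siCyclin K#2 library (log2 difference -0.21 to -0.19). The mean level in controls ran from 21.7 FPKM for MCM5 to 57.3 for MCM6.

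Of the 7 genes that turn the loaded ring into a helicase, 3 fell and 2 rose with siCyclin K#1, and 2 fell and 3 rose with siCyclin K#2. MCM10, which helps the helicase to open (ENSG00000065328, chr10:13161554-13211104, plus strand), was at 15.5, 13.8 and 14.5 FPKM with scrambled siRNA, 8.15, 8.32 and 8.42 after siCyclin K#1 and 14.1, 14.3 and 13.7 after siCyclin K#2. It fell, at a log2 difference of -0.81 ± 0.05 with siCyclin K#1 (adjusted p = 2.38e-06) and overlapped the controls with siCyclin K#2 (log2 difference -0.06 ± 0.05, adjusted p = 0.434). CDC45, the helicase cofactor, had the opposite split. It was at 9.13, 7.83 and 8.49 FPKM in controls, 9.499, 7.87 and 9.39 after siCyclin K#1 and 14.9, 14.1 and 13.99 after siCyclin K#2, a rise with a log2 difference of 0.75 ± 0.08 (adjusted p = 0.000147) with siCyclin K#2 against 0.07 ± 0.08 (adjusted p = 0.548) with siCyclin K#1. Within the GINS complex, GINS2 and GINS3 rose with both siRNAs and GINS1 fell with both. GINS3 was at 8.06, 7.42 and 7.48 FPKM in controls, 9.701, 9.23 and 9.59 after siCyclin K#1 and 11.4, 12.1 and 11.7 after siCyclin K#2, so that the groups rose in that order without overlap (log2 difference 0.31 and 0.61, adjusted p = 0.000843 and 2.23e-05). GINS1 was at 30.03, 28.6 and 29.5 FPKM in controls, 24.6, 26.3 and 25.3 and 25.3, 25.6 and 25.5 (log2 difference -0.21 and -0.20, adjusted p = 0.00128 and 0.00213). GINS4 was the least certain gene of the 55. Its values were 4.45, 2.12 and 1.84 FPKM in controls, 3.53, 1.13 and 1.89 after siCyclin K#1 and 1.53, 1.68 and 1.66 after siCyclin K#2, with replicate 1 high in the scrambled siRNA and siCyclin K#1 groups and as few as 193 reads in a library. TOPBP1, which recruits CDC45, fell slightly with both siRNAs (log2 difference -0.25 and -0.17, adjusted p = 0.000772 and 0.00893).

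Among 9 subunits of the replicative polymerases and primase, changes stayed between -0.39 and 0.49. With siCyclin K#1, POLA1 and PRIM2 fell and POLD1 and POLE rose, the call of POLE (log2 difference 0.24) being lost with other scalings (log2 difference 0.16 and 0.14). With siCyclin K#2, POLA2, POLD1, POLE and POLE2 rose and none fell, and of these the calls of POLA2, POLE and POLE2 were lost without some single libraries (log2 difference 0.21 to 0.32, 0.14 to 0.22 and 0.19 to 0.29). POLA1, the catalytic subunit of the polymerase that extends primers (ENSG00000101868, chrX:24693919-24996986, plus strand), was at 7.39, 7.77 and 7.69 FPKM in controls, 5.83, 5.53 and 6.03 after siCyclin K#1 and 7.35, 6.86 and 7.01 after siCyclin K#2. It fell, at a log2 difference of -0.39 ± 0.05 (adjusted p = 0.00031) with siCyclin K#1 and gave -0.11 (adjusted p = 0.161) with siCyclin K#2. POLD1, the catalytic subunit of the lagging strand polymerase, shares its row in the tables with SPIB and AC020909.1, so its values may hold reads of those genes. That row was at 6.48, 6.38 and 6.83 FPKM in controls, 7.38, 7.41 and 7.55 after siCyclin K#1 and 9.59, 9.37 and 8.77 after siCyclin K#2, rising in that order without overlap. The siCyclin K#2 change was 0.49 ± 0.05 (adjusted p = 9.48e-05), and the siCyclin K#1 change (log2 difference 0.18, adjusted p = 0.0174) was lost with other scalings (log2 difference 0.11 and 0.08) and without some libraries (log2 difference 0.16 to 0.17). PRIM1, POLD2 and POLD3 passed with neither siRNA, and POLD3 had 1 low library in each depleted group, at 7.81, 4.41 and 7.72 FPKM after siCyclin K#1 and 7.65, 7.06 and 5.29 after siCyclin K#2.

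PCNA, the sliding clamp, was the most abundant of the 55 transcripts. It was at 305, 287 and 298 FPKM with scrambled siRNA, 413, 407 and 413 after siCyclin K#1 and 406, 371 and 375 after siCyclin K#2, so that both siRNAs raised it without overlap with the controls (log2 difference 0.47 ± 0.04 and 0.37 ± 0.04, adjusted p = 1.51e-05 and 0.000103). The 5 subunits of the clamp loader RFC were split. RFC4 (ENSG00000163918, chr3:186789880-186807058, minus strand) was at 8.74, 8.395 and 8.33 FPKM in controls, 4.29, 4.43 and 4.16 after siCyclin K#1 and 8.54, 8.03 and 7.71 after siCyclin K#2. RFC4 fell, at a log2 difference of -0.97 ± 0.05 with siCyclin K#1 (adjusted p = 1.4e-06) and overlapped the controls with siCyclin K#2 (log2 difference -0.07 ± 0.05, adjusted p = 0.374), a direct difference of -0.90 ± 0.05. RFC5 was at 15.6, 15.01 and 14.7 FPKM in controls, 9.68, 8.51 and 9.63 after siCyclin K#1 and 10.8, 9.81 and 9.99 after siCyclin K#2. RFC5 thus fell with both siRNAs, at log2 differences of -0.70 ± 0.06 and -0.56 ± 0.06 (adjusted p = 2.38e-05 and 0.000146). RFC2 rose with siCyclin K#2 (log2 difference 0.54, adjusted p = 0.0043), RFC3 fell with siCyclin K#1 (log2 difference -0.19, adjusted p = 0.0421) with a call lost without any of 5 libraries (log2 difference -0.19 to -0.15), and the large subunit RFC1 stayed within -0.03 and 0.09. Exons of RFC4 overlap those of EIF4A2 and exons of RFC5 those of WSB2 on the opposite strand, and whether reads were counted by strand was not given in the sources used here.

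RPA, the trimer that coats single-stranded DNA, fell in part. RPA2, its middle subunit (ENSG00000117748, chr1:27891524-27914746, minus strand), was at 33.1, 31.5 and 31.4 FPKM with scrambled siRNA, 18.6, 19.95 and 19.4 after siCyclin K#1 and 21.1, 20.6 and 23.4 after siCyclin K#2. It fell, at a log2 difference of -0.72 ± 0.05 and -0.56 ± 0.05 (adjusted p = 7.6e-06 and 6.07e-05), with all 6 depleted libraries below all 3 controls. RPA3, the small subunit, was at 9.12, 10.2 and 8.17 FPKM in controls, 8.06, 7.77 and 7.698 after siCyclin K#1 and 8.12, 7.63 and 7.01 after siCyclin K#2. Its fall with siCyclin K#2 (log2 difference -0.27 ± 0.09, adjusted p = 0.0404) lay near the threshold and was lost without any of 7 of the 9 libraries (log2 difference -0.27 to -0.19), and siCyclin K#1 gave -0.22 (adjusted p = 0.07). RPA1, the large subunit, fell with siCyclin K#1 (log2 difference -0.25, adjusted p = 0.0108), a call lost after quantile normalization (log2 difference -0.17), and gave -0.11 (adjusted p = 0.235) with siCyclin K#2. LIG1, the ligase that seals Okazaki fragments (ENSG00000105486, chr19:48115445-48170603, minus strand), was at 14.5, 15.1 and 14.4 FPKM in controls, 18.9, 18.3 and 18.7 after siCyclin K#1 and 12.8, 12.8 and 12.98 after siCyclin K#2. The 3 groups of LIG1 were separate and the controls lay in between, with a rise at a log2 difference of 0.34 ± 0.04 (adjusted p = 5.48e-05) and a fall at -0.19 ± 0.04 (adjusted p = 0.00313). LIG1 was the one gene of the 55 that was higher in siCyclin K#1 than in siCyclin K#2 libraries (log2 difference 0.53 ± 0.04, adjusted p = 1.15e-05). Its exons overlap those of AC011466.3 on the opposite strand.

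Of the 5 enzymes of deoxynucleotide supply, RRM2, RRM1 and TK1 were lower in siCyclin K#1 than in siCyclin K#2 libraries, each by more than 1.5-fold, and TYMS and DUT passed in neither direction. RRM2, the small subunit of ribonucleotide reductase that is made in S phase (ENSG00000171848, chr2:10120698-10131419, plus strand), was at 23.4, 23.2 and 22.8 FPKM with scrambled siRNA, 11.7, 11.4 and 10.45 after siCyclin K#1 and 35.2, 36.6 and 24.7 after siCyclin K#2. Every siCyclin K#1 library lay below every control and every siCyclin K#2 library above, with siCyclin K#2 replicate 3 close to the controls. RRM2 fell, at a log2 difference of -1.05 ± 0.13 with siCyclin K#1 (adjusted p = 0.000196) and was lower than with siCyclin K#2 at a direct difference of -1.50 ± 0.13 (adjusted p = 5.42e-05). Its rise with siCyclin K#2 (log2 difference 0.45 ± 0.13, adjusted p = 0.0258) was lost without any of the scrambled libraries (log2 difference 0.44 to 0.46) and without siCyclin K#2 replicate 1 or 2 (log2 difference 0.38 and 0.35). The row of RRM2 is joined with AC007240.1 and C2orf48 in the tables. RRM1, the large subunit, went the same ways at 42.8, 46.1 and 48.1 FPKM in controls, 31.5, 31.2 and 28.6 after siCyclin K#1 and 61.3, 58.2 and 55.2 after siCyclin K#2 (log2 difference -0.58 ± 0.06 and 0.35 ± 0.06, adjusted p = 5.43e-05 and 0.00176). Both of these calls of RRM1 held in every alternative run. TK1, the thymidine kinase of proliferating cells, was at 93.6, 95.3 and 85.5 FPKM in controls, 54.3, 53.6 and 55.2 after siCyclin K#1 and 99.9, 92.2 and 97.5 after siCyclin K#2. TK1 fell, at a log2 difference of -0.75 ± 0.05 with siCyclin K#1 (adjusted p = 2.87e-06) and overlapped the controls with siCyclin K#2 (log2 difference 0.08 ± 0.05, adjusted p = 0.243). TYMS, the thymidylate synthase, rose alike with both (log2 difference 0.24 and 0.24, adjusted p = 0.00239 and 0.00371), and its exons overlap those of ENOSF1 on the opposite strand. DUT, the dUTPase, passed with neither siRNA (log2 difference 0.27 and 0.13).

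**Figure D4:**
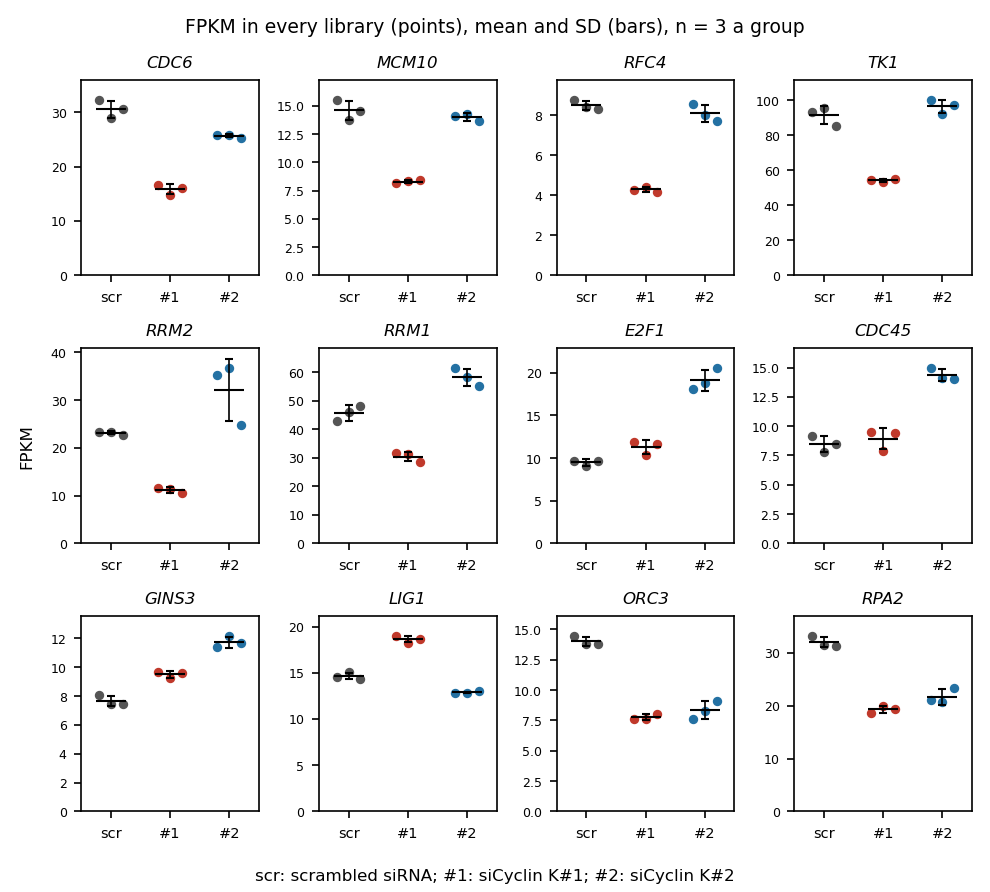
FPKM of 12 replication genes in every library (points), with the mean and SD of each group of 3 (black). CDC6, MCM10, RFC4, TK1, RRM2 and RRM1 were lowest with siCyclin K#1, E2F1, CDC45 and GINS3 highest with siCyclin K#2, LIG1 highest with siCyclin K#1, and ORC3 and RPA2 low with both.

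At the replication fork, CLSPN fell with both siRNAs and TIMELESS rose with both. CLSPN encodes claspin, which links the helicase to the checkpoint kinase ATR, and was at 12.8, 12.7 and 12.1 FPKM with scrambled siRNA, 7.67, 7.19 and 7.64 after siCyclin K#1 and 9.704, 10.9 and 10.95 after siCyclin K#2. The 3 groups did not overlap, with log2 differences of -0.73 ± 0.06 and -0.25 ± 0.06 against the controls (adjusted p = 1.14e-05 and 0.00909). TIMELESS was at 14.5, 15.1 and 14.9 FPKM in controls, 19.5, 19.7 and 20.4 after siCyclin K#1 and 18.99, 18.9 and 19.4 after siCyclin K#2 (log2 difference 0.42 and 0.36, adjusted p = 1.39e-05 and 5.73e-05). Its obligate partner TIPIN, whose row is joined with the pseudogene RPL9P25, was at 6.62, 6.07 and 6.35 FPKM in controls, 6.21, 5.38 and 5.38 and 10.1, 8.95 and 7.99. TIPIN rose with siCyclin K#2 (log2 difference 0.49 ± 0.09, adjusted p = 0.00317) and overlapped the controls with siCyclin K#1 (log2 difference -0.17 ± 0.09, adjusted p = 0.191), so the partners did not move together there. WDHD1, which ties polymerase alpha to the helicase, stayed at 0.00 with siCyclin K#1 and rose slightly with siCyclin K#2 (log2 difference 0.15, adjusted p = 0.0285), a call lost without any of 4 libraries (log2 difference 0.13 to 0.14).

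Of the chromatin genes, CHAF1A and CHAF1B encode the large subunits of the CAF-1 histone chaperone and UHRF1 guides DNA methylation to new strands. CHAF1A was at 12.3, 11.03 and 11.9 FPKM in controls, 12.6, 11.8 and 11.9 after siCyclin K#1 and 17.98, 16.6 and 17.6 after siCyclin K#2. It rose with siCyclin K#2 (log2 difference 0.56 ± 0.05, adjusted p = 6.44e-05) and overlapped the controls with siCyclin K#1 (log2 difference 0.04 ± 0.05, adjusted p = 0.556). UHRF1 was at 35.9, 33.8 and 30.2 FPKM in controls, 21.6, 20.7 and 21.9 after siCyclin K#1 and 27.8, 33.3 and 32.8 after siCyclin K#2, the reverse split. It fell, at a log2 difference of -0.63 ± 0.08 with siCyclin K#1 (adjusted p = 0.000241) and gave -0.09 ± 0.08 (adjusted p = 0.46) with siCyclin K#2. CHAF1B was at 5.595, 5.88 and 5.62 FPKM in controls, 4.89, 4.65 and 4.85 after siCyclin K#1 and 6.59, 6.31 and 6.702 after siCyclin K#2, between which the controls lay (log2 difference -0.24 and 0.19, adjusted p = 0.00371 and 0.0158). Its siCyclin K#2 call was lost with other scalings (log2 difference 0.14 and 0.11) and without scrambled replicate 1 or 3 or siCyclin K#2 replicate 3 (log2 difference 0.18 each).

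E2F1 and E2F2, factors that activate S-phase genes, were highest with siCyclin K#2. E2F3, a further activator, was lowest with siCyclin K#2 (9.32 FPKM on average in controls, 7.94 after siCyclin K#1 and 5.97 after siCyclin K#2). E2F3 was counted among the related genes below and is named after its values were seen. E2F3 fell with both siRNAs, at log2 differences of -0.23 and -0.63 (adjusted p = 0.00999 and 4.17e-05). E2F1 (ENSG00000101412, chr20:33675683-33686404, minus strand) was at 9.69, 9.06 and 9.71 FPKM with scrambled siRNA, 11.9, 10.4 and 11.6 after siCyclin K#1 and 18.1, 18.8 and 20.5 after siCyclin K#2. The groups did not overlap, and the siCyclin K#2 libraries stood well above both others. E2F1 rose with a log2 difference of 1.00 ± 0.07 with siCyclin K#2 (adjusted p = 7.54e-06), the largest rise of the 55 genes. Its rise with siCyclin K#1 (log2 difference 0.25 ± 0.07, adjusted p = 0.0146) was lost with other scalings (log2 difference 0.17 and 0.19), without scrambled replicate 2 (log2 difference 0.22) and without siCyclin K#1 replicate 1 (log2 difference 0.21). E2F2 was at 4.07, 3.59 and 3.36 FPKM in controls, 4.003, 3.89 and 3.88 after siCyclin K#1 and 4.71, 4.93 and 5.38 after siCyclin K#2, a rise with siCyclin K#2 at a log2 difference of 0.44 ± 0.08 (adjusted p = 0.0029) against 0.10 (adjusted p = 0.382) with siCyclin K#1.

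The promoters were searched for the letters TTTCCCGC, TTTGGCGC, TTTCGCGC and TTTGCCGC on both strands, spellings of the sequence that E2F factors are known to bind. The windows ran from 250 bases before to 50 bases after the start of each gene in RefSeq (GRCh38.p14), and 49 of the 55 genes had one. Of these, 23 held at least 1 match (46.9%), compared with 3.3% of all 35116 promoters and 4.6% of the 15754 promoters of genes tested here. By spelling, 12 held TTTCCCGC (1.6% of all promoters), 8 held TTTGGCGC (0.7%), 6 held TTTCGCGC (0.5%) and 1 held TTTGCCGC (0.6%). Matches of different spellings or strands may overlap, as both matches of MCM2 do. One match is shown for each of the genes described above by the naming rule whose promoter held any, 5′ to 3′ on the strand of the gene, with the matching letters in capitals (in either orientation) and 30 bases in all, because these genes share the letters while their changes differed.
ORC3, chr6:87590112-87590141, plus strand: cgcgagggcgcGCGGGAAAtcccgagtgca
CDC6, chr17:40287875-40287904, plus strand: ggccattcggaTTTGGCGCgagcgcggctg
MCM2, chr3:127598402-127598431, plus strand: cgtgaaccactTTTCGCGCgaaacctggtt
MCM7, chr7:100101388-100101417, minus strand: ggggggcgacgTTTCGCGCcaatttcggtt
POLA1, chrX:24693770-24693799, plus strand: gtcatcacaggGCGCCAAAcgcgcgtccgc
LIG1, chr19:48170440-48170469, minus strand: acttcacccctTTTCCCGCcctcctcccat
CLSPN, chr1:35769965-35769994, minus strand: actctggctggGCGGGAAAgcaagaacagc
UHRF1, chr19:4909476-4909505, plus strand: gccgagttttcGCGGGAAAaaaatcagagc
E2F1, chr20:33686387-33686416, minus strand: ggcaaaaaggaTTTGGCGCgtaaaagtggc
E2F2, chr1:23531257-23531286, minus strand: gcggcacgacgTTTGGCGCtaaaaaaaaaa

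Genes with and without these letters did not part cleanly by change. Among the 23 with a match, 11 fell and 7 rose with siCyclin K#1, and 7 fell and 11 rose with siCyclin K#2. Among the 26 promoters without a match, 13 genes fell and 2 rose with siCyclin K#1, and 4 fell and 11 rose with siCyclin K#2. The median differences with a match were -0.04 and -0.02, and without one -0.19 and 0.09. Of the 9 genes that differed by more than 1.5-fold between the siRNAs, E2F1 and CDC6 held a match. No match was found in the windows of RRM2, RRM1, TK1, RFC4, MCM10, CDC45 and TIPIN, and this says only that these letters are not in those windows.

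The 3′ UTRs were also searched for the letters complementary to bases 2 to 8 of the guide strand of each siRNA, taking the strand given in the study's methods as the sense strand, that is GTGATAA for siCyclin K#1 and TACAGGT for siCyclin K#2, in the longest annotated 3′ UTR of each gene (GENCODE 29). All 55 genes had such a UTR. The siCyclin K#1 letters were in 2 of them (3.6%), RRM1 and RRM2, and in 10.6% of 11406 tested genes with a 3′ UTR. These 2 genes also had the lowest direct differences of the 55 (log2 difference -0.93 and -1.50), with a median change of -0.81 with siCyclin K#1 and 0.40 with siCyclin K#2, compared with -0.19 and 0.06 in the other 53. The sites are shown with the matching letters in capitals, 5′ to 3′ on the strand of the gene (GRCh38), since they belong to the genes that differed most.
RRM1, chr11:4138777-4138806, plus strand: agcaaaactgaGTGATAActcatgagaagt
RRM2, chr2:10130899-10130928, plus strand: ggattgcaggcGTGATAAacaaatattctt

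Among the 53 genes without the siCyclin K#1 letters, 25 fell with siCyclin K#1, against 18.1% of all genes tested. Of the same 53, 31 were lower than with siCyclin K#2, against 12.3% of all genes. The changes of other tested genes that hold these letters were not counted. The siCyclin K#2 letters were in 6 UTRs (10.9%, against 13.2% of the tested genes), those of CDC6, MCM4, GINS1, RFC2, TIPIN and CHAF1B, of which 3 fell with siCyclin K#2, against 11 of the 49 without them. The part of either site in these values was not tested.

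The length of the gene and its level were set beside the changes, and their part in the changes was not tested. Across the 55 genes, Pearson's r between the log10 of the genomic span and the change was 0.06 with siCyclin K#1, -0.13 with siCyclin K#2 and 0.20 for the direct difference. With the log2 level in controls it was -0.13, -0.10 and -0.05. Spearman's rho, in the same order, was 0.02, -0.15 and 0.21 with the span and -0.21, -0.18 and 0.01 with the level. These correlations are across genes of the same libraries, which are not independent replicates.

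Other genes of S phase were taken from 7 lists that hold none of the 55, with 67 genes in all, 66 of them tested (POLD4 was not analysed here). With siCyclin K#1, 32 fell and 12 rose (median -0.23), and with siCyclin K#2, 26 fell and 13 rose (median -0.09). Directly, 21 were lower and 7 higher with siCyclin K#1. Over all genes tested, 18.1% fell and 26.8% rose with siCyclin K#1, and 15.2% fell and 19.8% rose with siCyclin K#2. Among those of at least 1 FPKM, the shares were 27.8% and 36.5%, and 22.4% and 31.1%. Directly, 12.3% of all genes were lower and 17.1% higher with siCyclin K#1. The same shares stand beside the counts of each list below. Unlike the replication genes themselves, these lists held more genes that fell than rose with siCyclin K#2 as well, a difference that was not tested.

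Among 11 S-phase cyclins, kinases and inhibitors of CDKs, 7 fell and 2 rose with siCyclin K#1, and 6 fell and 2 rose with siCyclin K#2. CCNE2, which encodes cyclin E2, was at 4.63, 4.47 and 4.84 FPKM with scrambled siRNA, 1.02, 1.01 and 1.22 after siCyclin K#1 and 3.82, 3.82 and 2.82 after siCyclin K#2, and fell, at a log2 difference of -2.01 and -0.42 (adjusted p = 3.11e-06 and 0.0332). DBF4, the activator of the kinase CDC7 that fires origins, was at 6.16, 5.898 and 6.22 FPKM in controls, 1.89, 2.11 and 1.85 and 4.33, 4.76 and 4.54 (log2 difference -1.60 and -0.42, adjusted p = 3.46e-07 and 0.00155). Both were much lower in siCyclin K#1 than in siCyclin K#2 libraries, whereas CDKN1B, the CDK inhibitor p27, fell alike from 38.96, 41.3 and 39.9 FPKM to 16.4, 17.6 and 18.3 and 17.5, 15.3 and 15.9 (log2 difference -1.20 and -1.30, adjusted p = 7.63e-07 and 9.92e-07). CDK2 fell as well (log2 difference -0.88 and -0.49, adjusted p = 0.000898 and 0.0266). CDKN1A, the CDK inhibitor p21, and CDC25A, the phosphatase that activates CDK2, fall outside the rule for naming and were chosen after their values were seen. CDKN1A was at 33.4, 30.7 and 33.2 FPKM in controls, 42.98, 48.6 and 44 after siCyclin K#1 and 18.7, 18.2 and 16.1 after siCyclin K#2, and so rose with the first (log2 difference 0.48, adjusted p = 0.000506) and fell with the other (log2 difference -0.88, adjusted p = 2.04e-05). CDC25A was at 10.6, 10.02 and 10.46 FPKM in controls, 6.296, 6.78 and 6.35 after siCyclin K#1 and 11.2, 11.8 and 12.2 after siCyclin K#2, the opposite order (log2 difference -0.67 and 0.18, adjusted p = 9.2e-06 and 0.0236).

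Of 13 RB family and other E2F genes, 4 fell and 4 rose with siCyclin K#1, and 4 fell and 5 rose with siCyclin K#2. RBL2, the RB relative p130 of resting cells, rose from 6.303, 6.63 and 6.44 FPKM to 12.6, 13.4 and 13.7 after siCyclin K#1 and 8.75, 8.33 and 8.404 after siCyclin K#2 (log2 difference 1.02 and 0.39, adjusted p = 4.78e-07 and 0.000238), with no overlap of the 3 groups. E2F8, a repressor of E2F targets, rose with both (log2 difference 0.63 and 0.79, adjusted p = 0.000165 and 6.42e-05). E2F5 and E2F6, which also act as repressors, fell with both, E2F5 at a log2 difference of -0.79 and -1.06 (adjusted p = 0.000511 and 0.000124) and E2F6 at -0.82 and -0.38 (adjusted p = 4.36e-05 and 0.00634).

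Of 7 genes of origin firing and relatives of MCM, 3 fell and none rose with siCyclin K#1, among them MCM8 at 10.4, 10.9 and 9.49 FPKM in controls, 5.15, 5.05 and 5.59 after siCyclin K#1 and 10.3, 10.8 and 11.9 after siCyclin K#2 (log2 difference -0.95 and 0.10, adjusted p = 1.12e-05 and 0.351). MCMBP, which binds MCM rings, and the helicase RECQL4 fell with both siRNAs (MCMBP at -0.52 and -0.18, RECQL4 at -0.36 and -0.37). They were the 2 genes of this list that fell with siCyclin K#2, and 0 rose with it. Of 11 further polymerase, clamp and lagging strand genes, 6 fell and 2 rose with siCyclin K#1, and 5 fell and 2 rose with siCyclin K#2. DSCC1, of the alternative clamp loader, was at 11.8, 10.47 and 10.4 FPKM in controls, 5.27, 6.16 and 6.82 after siCyclin K#1 and 10.99, 11.3 and 11.4 after siCyclin K#2, and fell with siCyclin K#1 (log2 difference -0.84, adjusted p = 8.3e-05) but not detectably with siCyclin K#2 (log2 difference 0.04, adjusted p = 0.783), with a direct difference of -0.88 (adjusted p = 0.000149). Its partner CHTF18 (log2 difference -0.49 and -0.35) and TOP1, the topoisomerase that relieves strain ahead of forks (log2 difference -0.47 and -0.18), fell with both, and RNASEH2C, of the enzyme that removes ribonucleotides from DNA, fell with siCyclin K#2 (log2 difference -0.93, adjusted p = 0.0275).

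Of 10 other nucleotide enzymes, 4 fell and 2 rose with siCyclin K#1, and 3 fell and 1 rose with siCyclin K#2. RRM2B, the p53-inducible small subunit of ribonucleotide reductase, was at 9.82, 9.04 and 9.97 FPKM in controls, 15.97, 15.7 and 16.6 after siCyclin K#1 and 11.2, 9.72 and 9.79 after siCyclin K#2. It rose with siCyclin K#1 (log2 difference 0.74, adjusted p = 2.3e-05), where RRM2 fell, and gave 0.09 (adjusted p = 0.353) with siCyclin K#2. TK2, the mitochondrial thymidine kinase, rose with siCyclin K#1 (log2 difference 0.72, adjusted p = 0.0328), DCTD, the deoxycytidylate deaminase, rose with siCyclin K#2 (log2 difference 0.72, adjusted p = 0.0215), and DTYMK, the thymidylate kinase, fell with both (log2 difference -0.55 and -0.25). Of 8 checkpoint genes, 4 fell and 1 rose with siCyclin K#1, and 4 fell and 2 rose with siCyclin K#2. ATR, the kinase that senses stalled forks, was at 5.07, 5.11 and 4.9 FPKM in controls, 3.69, 3.62 and 3.396 after siCyclin K#1 and 2.896, 2.86 and 2.89 after siCyclin K#2, and fell further with siCyclin K#2 (log2 difference -0.48 and -0.78, direct difference 0.30, adjusted p = 0.00406). WEE1, the kinase that restrains CDKs, and RAD9A fell with both (WEE1 at -0.71 and -0.54, RAD9A at -0.46 and -0.49), while RAD17 rose with both (log2 difference 0.51 and 0.47). Of 6 genes of replicated chromatin, 4 fell and 1 rose with siCyclin K#1, and 2 fell and 1 rose with siCyclin K#2. ASF1B, a histone chaperone, fell from 31.99, 30.98 and 28.7 FPKM to 13.8, 13.2 and 15.7 and 17.9, 17.3 and 16.7 (log2 difference -1.10 and -0.82, adjusted p = 2.9e-06 and 3e-05), and NASP, another chaperone, rose from 8.199, 9.33 and 7.96 FPKM to 12.6, 13.1 and 11.7 and 11.6, 13.1 and 13.04 (log2 difference 0.55 and 0.56). HELLS, a chromatin remodeler, fell with both (log2 difference -0.36 and -0.35), and SLBP, which binds histone mRNA, fell with siCyclin K#1 (log2 difference -0.43, adjusted p = 0.0198).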

How the data were processed

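RNA of 9 A549 libraries was sequenced and quantified by the authors, who deposited 1 table of FPKM values per library, made with StringTie 1.3.3b per the labels. The aligner and whether reads were counted by strand are not given in the sources used here. Beyond the overlaps noted above, exons of further genes overlap those of a gene on the opposite strand. Among them are MCM2 (TPRA1), MCM7 (AP4M1), RRM1 (RRM1-AS1) and CHAF1A (UBXN6). Exons of CHAF1B overlap those of MORC3 on the same strand. Coordinates are those of the tables (GRCh38), and sequences come from RefSeq (GRCh38.p14) and GENCODE 29. The groups come from the sample titles. Values on several rows of 1 gene were added up, and genes reaching 0.1 FPKM in 3 or more libraries (21048) were kept. Their log2(FPKM + 0.1) values were fitted once over the 3 groups by limma 3.58.1 in R 4.3.3, using eBayes with trend and Benjamini-Hochberg adjustment over every gene kept. The method was tested on simulated data for the siCyclin K#1 comparison over 21048 genes, where 173 of 200 genes changed by 1 on the log2 scale were recovered, with 12 false calls. Depth was recovered by reading FPKM values as multiples of 1 read per exon length (85.05% of values above 0 within 0.05 of a whole read). Replicates differed by more than sampling noise (chi-square per degree of freedom 11.62 to 15.43).

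The replication genes, the related lists and the marker lists were chosen with earlier results of these data known. Values in every library were given for the genes with the 2 largest called changes against scrambled siRNA in each of the 12 roles, and up to 4 genes of each related list were named by the same measure. ORC1, CDT1, MCM5, GINS1, GINS3, GINS4, POLD3, PCNA, RRM1, TIMELESS, CHAF1B, E2F3, CDKN1A and CDC25A were added after their values were seen, and the other genes are given by their changes and counts. The alternatives were other pseudocounts, filters, scalings, eBayes without trend, a replicate block, fits of only the groups compared, the highest row per gene, leaving out each library and, added after the data were seen, limma-voom on recovered reads.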

Additional observations from a re-analysis of the deposited data

Results flagged for a closer look

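In 5 of the 55 genes the siRNAs changed the level in opposite directions against the shared scrambled siRNA libraries, and the direct test between the siRNAs passed as well. Subtracting the siCyclin K#2 from the siCyclin K#1 level, the log2 difference was -0.52 for MCM5, -0.93 for RRM1, -1.50 for RRM2, -0.44 for CHAF1B and 0.53 for LIG1, with adjusted p-values by limma of 0.000396, 9.3e-06, 5.42e-05, 0.000258 and 1.15e-05. Each was past the threshold with every library left out in turn. Against scrambled siRNA, both calls of RRM1 and LIG1 held in every alternative run. The siCyclin K#1 call of MCM5 and the siCyclin K#2 calls of RRM2 and CHAF1B were lost on leaving out single libraries.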

How the results depend on the processing

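No called change of the replication genes turned its direction under any alternative run. The calls of the related genes were not followed over these runs. Of the calls against scrambled siRNA, 30 of 36 with siCyclin K#1 and 28 of 37 with siCyclin K#2 held with each library left out in turn, as did 28 of 34 direct calls. With siCyclin K#1, those of ORC5, ORC6, MCM5, POLD1, RFC3 and E2F1 were lost. With siCyclin K#2, those of GMNN, MCM7, POLA2, POLE, POLE2, RPA3, RRM2, WDHD1 and CHAF1B were lost. Other settings also lost the siCyclin K#1 calls of POLE and RPA1 and the siCyclin K#2 call of MCM3, so that 28 of 36, 27 of 37 and 28 of 34 calls held in every alternative run. The direct calls lost were those of ORC2, ORC4, ORC6, MCM4, RFC2 and WDHD1. Past 1.5-fold, genes higher with siCyclin K#2 numbered 3 to 5 over the fits without a library (5 without siCyclin K#2 replicate 2, 3 with all libraries). They numbered 2 with a pseudocount of 1, after median-ratio rescaling and after quantile normalization. Genes lower with siCyclin K#2 numbered 1 to 2 (1 with all libraries), and 3 after median-ratio rescaling or quantile normalization. After quantile normalization 1 gene was higher with siCyclin K#1 past 1.5-fold (0 as deposited), and 2 were higher than with siCyclin K#2 in the direct test (1 as deposited), as with limma-voom and at most over the fits without a library (1 to 2). The median change with siCyclin K#1 was -0.284 after median-ratio rescaling and -0.218 to -0.15 without single libraries (-0.159 without scrambled replicate 1 and -0.15 without siCyclin K#1 replicate 2). With siCyclin K#2 it was 0.0208 after median-ratio rescaling, 0.0018 after quantile normalization and 0.0448 to 0.0960 without single libraries. The direct median was -0.202 after quantile normalization and -0.286 to -0.196 without single libraries. The cause of these shifts was not tested.

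All groups use the replicate numbers 1 to 3. Deviations of libraries with 1 number from their group means were not correlated over 11243 genes (mean -0.0059, range -0.0711 to 0.0379), so the numbers do not pair them. With the replicate block, 27 genes fell and 10 rose with siCyclin K#1, 13 fell and 21 rose with siCyclin K#2, and 30 were lower and 1 higher in the direct test, and the medians were -0.21, 0.07 and -0.24. Recovered reads could be had for 49 of the 55 genes, and of these GINS4 (193 or more) and RFC4 (410.4 to 416.1 in siCyclin K#1 libraries, not within the limit for whole reads in every library) rested on under 595 reads in a library.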
